A study of Mus musculus with 13 samples.

Results

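Haemangioblasts that lacked Tal1 were compared with wild-type (WT) haemangioblasts, all of them Flk-1+ cells made from mouse embryonic stem (ES) cells, by the expression of every measured gene. The comparison used 6 of the 13 RNAseq libraries of the series, 3 of WT and 3 of Tal1-/- Flk-1+ cells, and 3 libraries of Lmo2-/- Flk-1+ cells entered the same model. Genes were taken when their locus was longer than 200 bp and they had at least 1 FPKM (fragments per kilobase of transcript, scaled for library depth) in at least 2 of the 6 libraries, which left 12222 of 45250 genes. WT cells came from the CCB ES cell line, and Tal1-/- and Lmo2-/- cells each came from an ES line of that genotype. All lines were kept on mouse embryonic fibroblasts, passaged without them before differentiation, differentiated as embryoid bodies and sorted for surface Flk-1 with magnetic beads. The sources used here name no further agent or allele that set the groups apart. Because each genotype is 1 line, genotype and line cannot be told apart, and the 3 libraries of a group replicate the differentiation, as far as the sources used here say.

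TAL1 is a basic helix-loop-helix transcription factor that binds E-box motifs together with an E-protein such as the products of Tcf3, Tcf4 or Tcf12. In blood and endothelial precursors it sits in a complex with LMO2, LDB1 and often a GATA factor, and embryos without it form no blood. The haemangioblast is a mesodermal precursor of blood, endothelium and smooth muscle, and it carries Flk-1, the VEGF receptor that Kdr encodes.

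The 6 libraries listed between 12768 and 15358 genes above 0 FPKM. The files give no fragment counts, so the depth behind a value is unknown. A value of exactly 0 is not proof of absence, since of 3967 genes with a median above 10 FPKM over the 6 libraries between 1 and 19 were listed at 0 in a library. Across the tested genes Pearson's r of log2(FPKM + 1) was 0.82 to 0.89 between WT libraries, 0.78 to 0.81 between Tal1-/- libraries and 0.77 to 0.86 between the genotypes, so libraries of 1 genotype were not always the most alike. The mesodermal markers Kdr, Pdgfra, Etv2, Mesp1, T, Hand1 and Aplnr were above 0 in all 6 libraries, and their summed level was 279 to 615 FPKM in WT and 283 to 331 FPKM in Tal1-/-. Of 7 markers of blood cells, Ptprc, Hbb-bh1, Hba-x and Klf1 were listed at 0 in all 6 libraries, and the summed level ran from 2.43 to 7.54 FPKM in WT and from 0 to 6.71 FPKM in Tal1-/-. The 6 markers of mature endothelium summed to 6.41 to 10.9 FPKM in WT and 0.42 to 3.79 FPKM in Tal1-/-. Most of the 3.79 FPKM was Pecam1 in Tal1-/- replicate 1, at 3.66 FPKM against at most 2.285 FPKM in WT. Markers of cardiomyocytes summed to 9.32 to 13.5 FPKM in WT and 2.74 to 11.7 FPKM in Tal1-/-, those of neural cells to at most 6.06 FPKM, and those of undifferentiated ES cells to 2.85 to 8.89 FPKM in WT and 10.5 to 14.0 FPKM in Tal1-/-. The ES cell markers differed in direction. Dppa5a had 0, 0 and 0.81 FPKM in WT and 0, 5.76 and 5.33 FPKM in Tal1-/-. Esrrb had 0.91, 0.65 and 0.33 FPKM in WT and 0.053, 0 and 0 FPKM in Tal1-/-. Zfp42 was higher in each Tal1-/- library, at no more than 0.998 FPKM. Nanog, Klf4 and Tfcp2l1 overlapped, and Dppa3 was listed at 0. All libraries carried RNA of the Y-linked genes Eif2s3y, Ddx3y and Uty and had at most 0.325 FPKM of Xist. In bulk RNA, fewer cells of a type and less RNA per cell cannot be told apart.

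Tal1 was the targeted gene. Its locus in the files spans chr4:115056426-115071755 of GRCm38. WT libraries had 37.4, 25.6 and 21.98 FPKM and Tal1-/- libraries had 2.74, 3.41 and 2.88 FPKM, means of 28.3 ± 8.04 and 3.01 ± 0.35 (SD, n = 3 each). All Tal1-/- libraries were therefore below all WT libraries, by a log2 fold change of -2.84 ± 0.49 SE on the scale of log2(FPKM + 1). The limma p adjusted by the Benjamini-Hochberg method over all 12222 genes was 0.0825, which missed the threshold of 0.05, and it was 0.0490 when only the 6 libraries were fitted. An exact permutation test of 3 against 3 libraries cannot go below p = 0.10, which it gave for this gene and for every gene below whose libraries did not overlap. The sources used here do not say which part of Tal1 the mutant allele lacks, so the remaining fragments cannot be placed within the gene. Lmo2-/- libraries had 6.51, 29.0 and 6.64 FPKM, with 1 library inside the WT range.

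Of 13 neighbours of Tal1, 7 were tested. Pdzk1ip1, which encodes a small membrane protein and lies next to Tal1 at chr4:115088708-115093899, was higher in Tal1-/- than in WT. It had 2.56, 1.80 and 0 FPKM in WT and 22.2, 11.8 and 6.61 FPKM in Tal1-/- (log2 fold change 2.61 ± 0.55 SE, limma adjusted p = 0.145), while Lmo2-/- libraries had 0, 0 and 0.43 FPKM. The same-strand or antisense use of reads in the authors' counting is not stated, so reads of overlapping genes on opposite strands could not be separated. The kinase gene Mknk1 had 3.38, 8.13 and 7.70 FPKM in WT and 2.34, 5.02 and 0 FPKM in Tal1-/- (limma adjusted p = 0.531), and its libraries overlapped. No neighbour passed the adjusted test, and the median log2 fold change of the 7 was 0.11. What the engineered allele did to the neighbouring genes was not tested.

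Across all genes the median log2 fold change was -0.01, on values that had been scaled between libraries. A gene was called when its adjusted p was below 0.05 and either group had a mean above 10 FPKM. There were 3 such genes among 12222 (0.0245%), Wnk4, Alox12b and Fli1, all lower in Tal1-/-. Gm12929, a predicted gene, also had an adjusted p of 0.0425 at a mean of 7.41 FPKM in WT. At an unadjusted limma p below 0.05, 422 genes (3.45%) were higher and 678 (5.55%) lower in Tal1-/-, and these 2 shares are the background for the gene groups below. Among the 4738 genes with a mean above 10 FPKM, the libraries of the genotypes did not overlap for 271 genes (5.72%) that were higher and 383 genes (8.08%) that were lower in Tal1-/-. Of those, 85 were higher and 138 lower by at least 1 on the log2 scale, and 5 were higher and 19 lower by at least 2. Leaving out a library makes it easier for groups not to overlap, and the 2 counts were then 907 higher and 738 lower without WT replicate 0, the only library whose omission turned the order of the counts.

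**Figure D1:**
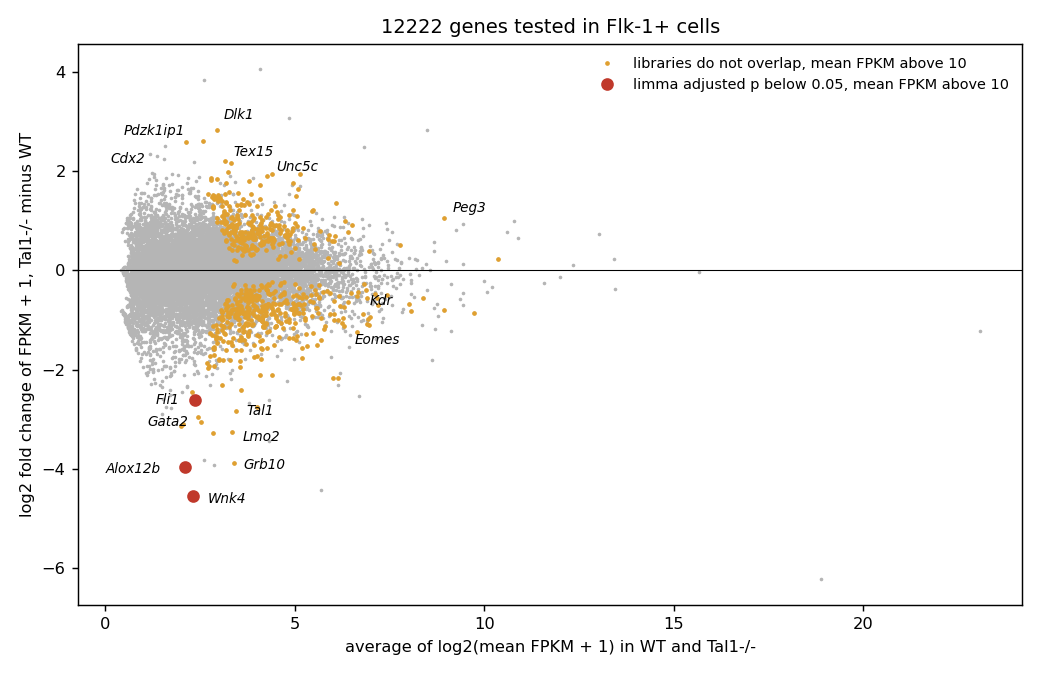
Log2 fold change (Tal1-/- minus WT, on log2(FPKM + 1)) against average level for the 12222 genes tested, 1 point per gene. Red points are the 3 genes called, orange points the 654 genes with a mean above 10 FPKM whose WT and Tal1-/- libraries do not overlap, and grey points the rest.

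Wnk4, which encodes a kinase that regulates salt transport, had the smallest p. It had 27.3, 31.6 and 12.7 FPKM in WT, was listed at 0 in all 3 Tal1-/- libraries, and had 2.02, 8.74 and 2.12 FPKM in Lmo2-/- (log2 fold change between Tal1-/- and WT -4.54 ± 0.51 SE, limma adjusted p = 0.013). Alox12b, a lipoxygenase gene best known from skin, had 32.1, 12.6 and 7.35 FPKM in WT, was also listed at 0 in all 3 Tal1-/- libraries, and had 2.73, 11.2 and 4.16 FPKM in Lmo2-/- (log2 fold change -3.96 ± 0.55 SE, adjusted p = 0.0425). Because of the zeros these fold changes depend on the 1 FPKM that was added before taking logs, and no ratio is given. Both genes lie on chromosome 11, Wnk4 at chr11:101260567-101277409 and Alox12b at chr11:69156989-69169792. Among all tested genes 48 (0.393%) were listed at 0 in the 3 Tal1-/- libraries and above 0 in the 3 WT libraries, and 5 showed the opposite, so the pattern of these genes was not found in them alone. Fli1 encodes an ETS transcription factor of early blood and endothelial cells. It had 14.03, 11.5 and 9.62 FPKM in WT and 0.51, 1.13 and 1.73 FPKM in Tal1-/-, means of 11.7 ± 2.21 and 1.12 ± 0.61 (SD, n = 3 each), with a log2 fold change of -2.61 ± 0.37 SE and an adjusted p of 0.0425. Lmo2-/- cells had 1.20, 0.93 and 0.93 FPKM, as low as Tal1-/- cells. The 3 calls were not stable to the libraries used. Without WT replicate 0, WT replicate 1 or Tal1-/- replicate 0 no gene was called, and the adjusted p of Wnk4 was then 0.161, 0.176 and 0.0508. Fli1 had an adjusted p of 0.0628 to 0.254 with any 1 of the 6 libraries left out, at log2 fold changes of -2.81 to -2.38. It also missed the threshold when only the 6 libraries were fitted (adjusted p = 0.116), where Tal1 was called in its place, with a pseudocount of 0.1 (adjusted p = 0.109), with the replicate block (0.115), with array weights (0.052), in the fit of 13 libraries (0.0625) and with no filter (0.162). Alox12b passed without WT replicate 2 only, and had an adjusted p of 0.0858 to 0.254 without any other library.

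The 15 lower genes described here had the smallest p among genes with a mean above 10 FPKM and no overlap. Loci of several names and predicted genes were left out. Wnk4, Alox12b and Fli1 head the 15. Of the other 12, 4 encode transcription factors of blood and endothelial development or a partner of these, Tal1 included. Tal1 itself is described above. Gata2, a zinc finger factor of blood stem and progenitor cells, had 31.4, 12.6 and 6.93 FPKM in WT and 0.50, 1.05 and 1.00 FPKM in Tal1-/- (log2 fold change -3.05 ± 0.54 SE, limma adjusted p = 0.0825). Lmo2, the LIM-only bridging protein that binds TAL1, had 22.9, 30.8 and 21.6 FPKM in WT and 0, 7.58 and 1.29 FPKM in Tal1-/- (log2 fold change -3.26 ± 0.65 SE, adjusted p = 0.122). Sox7, an endothelial SOXF factor, had 26.0, 11.3 and 6.95 FPKM in WT and 0.75, 0.23 and 1.66 FPKM in Tal1-/- (log2 fold change -2.95 ± 0.65 SE, adjusted p = 0.165). Gata2 and Sox7 were low in every Tal1-/- library, whereas Lmo2 ranged from 0 to 7.58 FPKM there. Without Tal1-/- replicate 1, which had the 7.58 FPKM, the adjusted p of Lmo2 was 0.0243 and its log2 fold change -4.09. Of 16 alternative fits this was the only 1 in which Lmo2 passed. Its adjusted p reached 0.427 without WT replicate 1, and was 0.202 when only the 6 libraries were fitted.

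The other genes of this set serve signalling, metabolism and the cell's structure. Grb10, an imprinted gene for an adaptor that binds receptor tyrosine kinases, had 119, 12.5 and 14.4 FPKM in WT, 3.04, 0.18 and 0.62 FPKM in Tal1-/- and 58.0, 128 and 76.8 FPKM in Lmo2-/- (log2 fold change between Tal1-/- and WT -3.88 ± 0.74 SE, limma adjusted p = 0.11). WT replicate 0 stood far above the other WT libraries for this gene. Efnb2, the ephrin that marks arterial endothelium, had 32.0, 24.3 and 22.3 FPKM in WT and 10.9, 4.49 and 7.01 FPKM in Tal1-/- (log2 fold change -1.74 ± 0.35 SE). Dusp4, a phosphatase induced by FGF and other MAP kinase signals, had 28.9, 17.3 and 17.5 FPKM in WT and 6.60, 6.49 and 7.32 FPKM in Tal1-/- (log2 fold change -1.47 ± 0.32 SE). Cyp26a1, the enzyme that breaks down retinoic acid, had 35.7, 26.0 and 34.2 FPKM in WT and 11.6, 6.96 and 12.2 FPKM in Tal1-/- (log2 fold change -1.57 ± 0.35 SE). These 3 genes were expressed in all 6 libraries. Like every gene of this set, they were lower in each Tal1-/- library than in any WT library, which the choice of genes fixes. The rest were Minos1 of the mitochondrial inner membrane, Psme1 of the proteasome activator, Cap2 that binds actin and the septin gene Sept8, with log2 fold changes of -2.42, -2.10, -1.69 and -1.37 and adjusted p-values of 0.0825, 0.122, 0.145 and 0.156.

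No gene that was higher in Tal1-/- passed the adjusted test. The 15 higher genes described here were chosen in the same way, by smallest p at a mean above 10 FPKM without overlap. Cdx2, described below, had a smaller p at a lower mean. Dlk1, an imprinted gene for a NOTCH-like membrane protein, had the smallest p of the 15. It had 1.98, 1.25 and 2.31 FPKM in WT and 27.3, 16.7 and 14.99 FPKM in Tal1-/- (log2 fold change 2.83 ± 0.46 SE, limma adjusted p = 0.0773). Tex15, a gene known from meiosis in the testis, had 5.29, 1.78 and 2.74 FPKM in WT and 16.8, 17.3 and 18.4 FPKM in Tal1-/- (log2 fold change 2.199 ± 0.38 SE, adjusted p = 0.0825). All 15 were higher in each Tal1-/- library than in any WT library, which the choice of genes fixes. Next came genes of the cell surface and matrix. Frem2, a basement membrane gene, had 4.99, 3.31 and 2.61 FPKM in WT and 24.5, 10.5 and 18.9 FPKM in Tal1-/-. Tnfrsf19, a TNF receptor family gene, had 12.2, 6.33 and 6.95 FPKM in WT and 26.5, 33.0 and 28.2 FPKM in Tal1-/-. Unc5c, a netrin receptor of axon guidance, had 14.8, 4.92 and 8.01 FPKM in WT and 40.4, 25.0 and 39.3 FPKM in Tal1-/-. Their log2 fold changes were 1.99, 1.72 and 1.90, with adjusted p-values of 0.11, 0.118 and 0.122. Among the regulators, Hoxb1, a homeobox gene of early mesoderm and hindbrain, had 4.19, 2.06 and 2.72 FPKM in WT and 8.36, 12.8 and 20.2 FPKM in Tal1-/-, and Dkk1, the secreted Wnt antagonist, had 3.67, 2.12 and 1.54 FPKM in WT and 4.68, 19.4 and 14.02 FPKM in Tal1-/-. The spread of Dkk1 within Tal1-/- was wide, and its lowest value there lay just above the highest WT value. Pfkfb3, a regulator of glycolysis, had 4.64, 5.33 and 10.1 FPKM in WT and 19.13, 16.2 and 21.3 FPKM in Tal1-/-. Prkag2, a subunit of AMP-activated kinase, had a log2 fold change of 1.47, and Nhsl2, Dnajc24, Plekha2, Arhgap29 and Gnao1 had log2 fold changes of 1.58, 1.82, 1.56, 1.38 and 1.75. For these 10 genes after Unc5c, Pdzk1ip1 included, the adjusted p ran from 0.145 to 0.252.

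**Figure D2:**
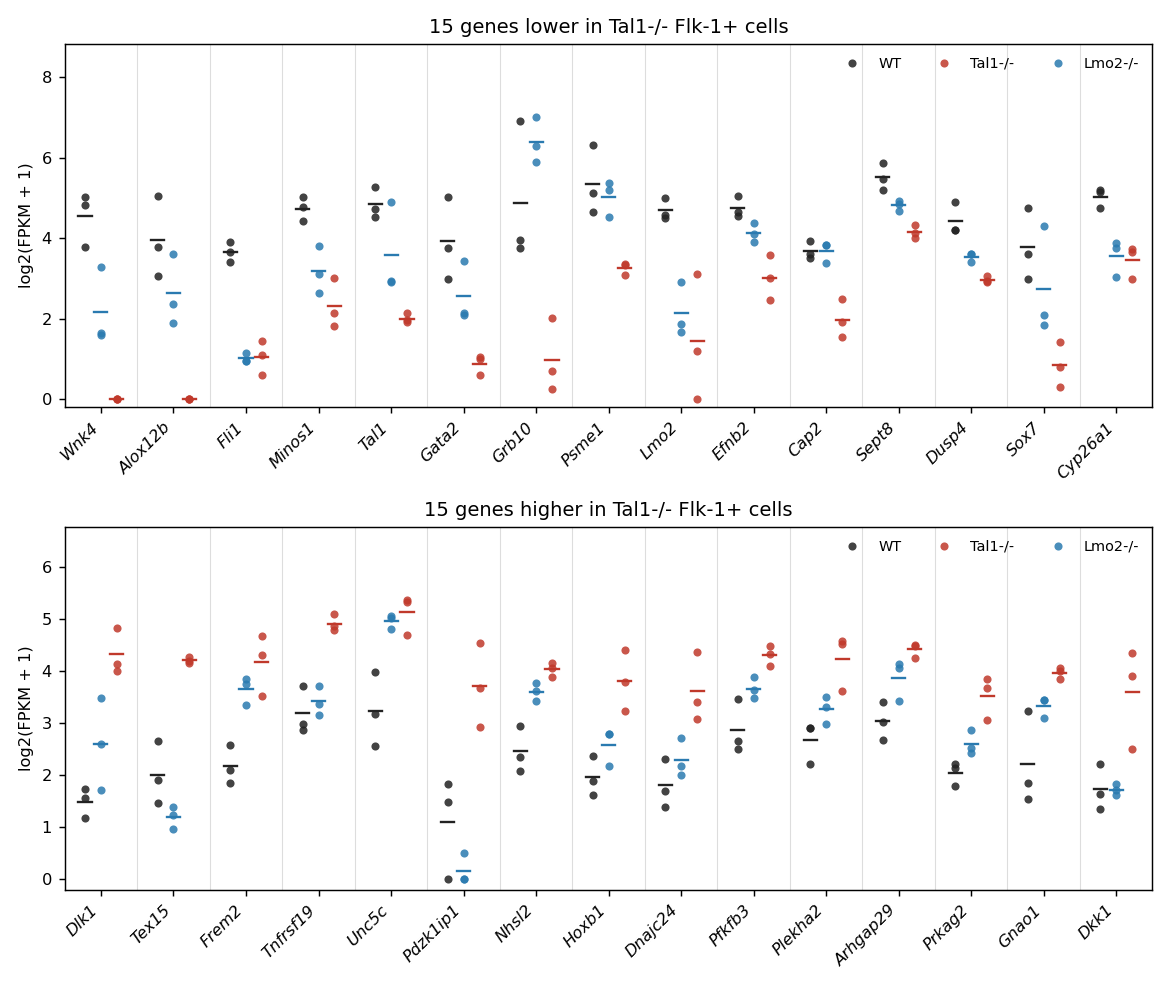
Level as log2(FPKM + 1) in each Flk-1+ library for the 15 genes lower (top) and the 15 higher (bottom) in Tal1-/-. They have the smallest p among genes with a mean above 10 FPKM and no overlap, without predicted genes and loci of several names. There is 1 point per library, 3 libraries per genotype, and a bar at the mean. For each gene the 3 red Tal1-/- points lie all below (top) or all above (bottom) the 3 black WT points, which the choice of genes fixes, and the blue Lmo2-/- points often lie in between.

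Of 18 genes of the TAL1 complex and its relatives, 15 were tested. At an unadjusted p below 0.05, 5 were lower and 1 was higher in Tal1-/-, against 5.55% and 3.45% of all genes, and the median log2 fold change was -0.56, against -0.01. That median was -0.33 without WT replicate 1 and -0.38 without Tal1-/- replicate 0. With 1 library left out, the medians of 20 of the 33 gene lists with at least 3 genes tested turned their sign. The 13 that kept it were those of this list and of the haematopoietic, primitive erythroid, endothelial, cardiac, smooth muscle, primitive streak, lateral plate, BMP and TGF-beta, Eph, integrin, glycolysis and oxidative phosphorylation genes. Tal1 is one of the 5 and was the targeted gene, and Lmo2 and Gata2 are described above. Gata1, the erythroid GATA factor, had 1.29, 1.26 and 0.22 FPKM in WT and was listed at 0 in all Tal1-/- libraries. Ssbp3, which encodes a single-stranded DNA binding protein that stabilises LDB1, had 84.5, 144 and 93.2 FPKM in WT and 40.4, 69.8 and 53.4 FPKM in Tal1-/- (log2 fold change -0.96 ± 0.36 SE, limma adjusted p = 0.473). Its libraries did not overlap. Ldb1, the bridging factor itself, had 34.6, 99.6 and 35.5 FPKM in WT and 25.5, 26.3 and 23.7 FPKM in Tal1-/- (log2 fold change -0.96 ± 0.45 SE, adjusted p = 0.565), and these did not overlap either. WT replicate 1 stood far above the other WT libraries for Ldb1, and without it the log2 fold change was -0.46. The one member at an unadjusted p below 0.05 that was higher was Cbfa2t2, a corepressor of the ETO family, with 20.3, 7.40 and 15.9 FPKM in WT and 49.3, 26.3 and 24.4 FPKM in Tal1-/- (log2 fold change 1.18 ± 0.40 SE, adjusted p = 0.436).

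The genes of the E-proteins, which pair with TAL1, did not separate the genotypes. Tcf4 had 31.0, 26.0 and 29.0 FPKM in WT and 35.3, 30.1 and 29.3 FPKM in Tal1-/-, and Tcf12 had 54.8, 37.7 and 25.6 FPKM in WT and 35.6, 29.6 and 27.8 FPKM in Tal1-/-. Tcf3 had 19.9, 16.98 and 8.92 FPKM in WT and 10.01, 7.91 and 6.92 FPKM in Tal1-/- (limma adjusted p = 0.592). The libraries of all 3 genes overlapped. The relatives Lmo4, Lmo1 and Ssbp2 had log2 fold changes of -0.05, 0.32 and -0.56, and Ldb2 had 1.16, with overlapping libraries. Those of Lmo1 and Lmo4 turned their sign with some libraries left out. Gata3, whose locus is shared with the predicted gene 9230102O04Rik, ran from 3.79 to 41.9 FPKM among the Tal1-/- libraries alone. Lyl1, the close relative of Tal1, was below the filter.

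**Figure D3:**
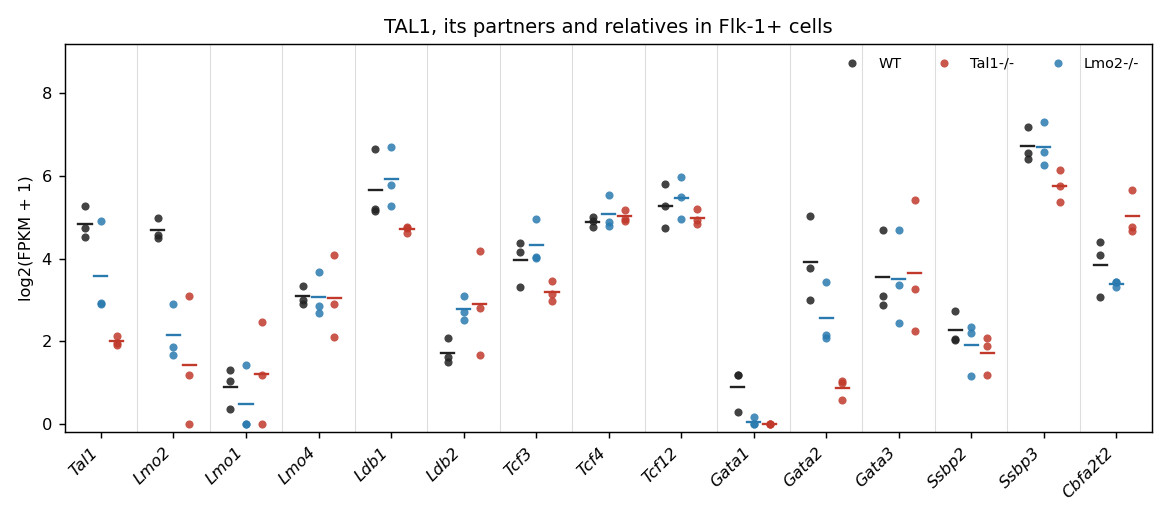
Level as log2(FPKM + 1) of the 15 tested genes of the TAL1 complex and its relatives in each Flk-1+ library, with 1 point per library, 3 libraries per genotype, and a bar at the mean. Tal1, Lmo2 and Gata2 have all 3 Tal1-/- points below the WT points, while those of Tcf4 and Tcf12 lie among them.

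Of 27 haematopoietic regulators and surface genes, 17 were tested, and 8 were lower and 1 was higher in Tal1-/- at an unadjusted p below 0.05, with a median log2 fold change of -0.48. The median rests on which low genes are included, and was -1.20 with the filter of 1 FPKM in 3 libraries and -0.93 to -0.60 with 1 library left out. Besides Fli1, which passed the adjusted test, the smallest p-values were those of transcription factors. Erg, the ETS factor most like Fli1, had 3.34, 22.4 and 11.1 FPKM in WT and 0.076, 0 and 0.81 FPKM in Tal1-/- (log2 fold change -3.10 ± 0.76 SE, limma adjusted p = 0.205). Hhex, a homeobox factor of haemangioblasts, had 6.12, 4.79 and 4.23 FPKM in WT and 0.49, 0.18 and 0 FPKM in Tal1-/- (log2 fold change -2.31 ± 0.41 SE, adjusted p = 0.0825). Ikzf1, a lymphoid and progenitor factor, had 3.12, 3.60 and 1.99 FPKM in WT and was listed at 0 in all Tal1-/- libraries (adjusted p = 0.11). All 3 had no overlap between the genotypes. The others were Runx1, the factor needed for definitive blood, with a log2 fold change of -1.20, Gfi1b with -1.30, Myb with -1.27 and the surface gene Itga2b (CD41) with -1.37. The libraries of Itga2b overlapped, with 1.59, 5.54 and 3.795 FPKM in WT and 0, 0.14 and 3.12 FPKM in Tal1-/-. Tal1-/- replicate 2 was above all WT libraries for 2 other members, Spi1 at 3.59 FPKM and Coro1a at 2.46 FPKM. The libraries of both overlapped. By their means, 14 of the 17 were lower and 3 higher. Runx1 stayed measurable in Tal1-/-, at 4.17, 5.97 and 3.49 FPKM against 17.2, 10.8 and 8.15 FPKM in WT. The member that was higher was Kit, the stem cell factor receptor, with 3.96, 2.67 and 2.11 FPKM in WT and 4.58, 7.53 and 10.7 FPKM in Tal1-/- (log2 fold change 1.098 ± 0.40 SE, adjusted p = 0.458). Runx1, Gfi1b, Myb, Spi1 and Coro1a were picked out after their values were seen.

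Of 24 primitive erythroid genes, 9 were tested, since globin genes were below the filter. There were 5 lower and 0 higher at an unadjusted p below 0.05, and the median log2 fold change was -0.91. That median was -0.09 with the filter of 1 FPKM in 3 libraries, because low members then dropped out. Car2, a carbonic anhydrase, had 50.3, 17.04 and 22.2 FPKM in WT and 7.37, 7.56 and 7.33 FPKM in Tal1-/- (log2 fold change -1.72 ± 0.42 SE, limma adjusted p = 0.216). Gypc, a red cell membrane gene, had 8.09, 4.05 and 2.43 FPKM in WT and 1.00, 2.09 and 0.091 FPKM in Tal1-/-. Nfe2, a factor of erythroid cells and megakaryocytes, and Epor, the erythropoietin receptor gene, were at most 2.28 FPKM in WT, and Nfe2 was listed at 0 in all Tal1-/- libraries. Fech, the last enzyme of haem synthesis, had a log2 fold change of -0.91, while Tfrc, the transferrin receptor gene that dividing cells use too, had 0.80, both named after their values were seen.

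Of 36 endothelial genes, 17 were tested, and 7 were lower and 0 higher in Tal1-/- at an unadjusted p below 0.05, with a median log2 fold change of -0.88 (-0.49 without WT replicate 0). Cdh5, which encodes VE-cadherin of endothelial junctions, had 5.48, 3.32 and 1.99 FPKM in WT and 0.28, 0.062 and 0.24 FPKM in Tal1-/- (log2 fold change -1.88 ± 0.44 SE, limma adjusted p = 0.2). Tek, the TIE2 receptor gene, had 2.27, 0.69 and 1.37 FPKM in WT and was listed at 0 in all Tal1-/- libraries (adjusted p = 0.393). Flt1, a VEGF receptor gene, had 27.0, 14.4 and 14.1 FPKM in WT and 6.20, 5.46 and 7.48 FPKM in Tal1-/- (log2 fold change -1.35 ± 0.37 SE, adjusted p = 0.289). The 3 genes were lower in every Tal1-/- library. Sox7 is described above, and Sox17 and Esam were at most 3.62 FPKM in any WT library.

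Kdr encodes Flk-1, the protein by which the cells were sorted. It had 252, 100 and 115 FPKM in WT and 86.0, 77.2 and 68.7 FPKM in Tal1-/- (log2 fold change -0.88 ± 0.37 SE, limma adjusted p = 0.518), without overlap. WT replicate 0 was the highest by far, and without it the log2 fold change of Kdr was -0.48. Pdgfra had 42.9, 22.5 and 24.3 FPKM in WT and 40.9, 45.4 and 43.6 FPKM in Tal1-/-. Among 14 tested receptors and ligands of the VEGF, PDGF and KIT families, 2 were lower (Kdr and Flt1) and 3 higher (Vegfc, Pdgfrb and Kit) at an unadjusted p below 0.05, and the median log2 fold change was -0.20 (0.16 without WT replicate 0 and 0.06 without Tal1-/- replicate 1). Vegfc, the ligand of lymphatic and venous growth, had 1.17, 0.64 and 1.12 FPKM in WT and 2.21, 11.3 and 3.63 FPKM in Tal1-/-, with most of its mean in 1 library. None of the 14 passed the adjusted test.

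**Figure D4:**
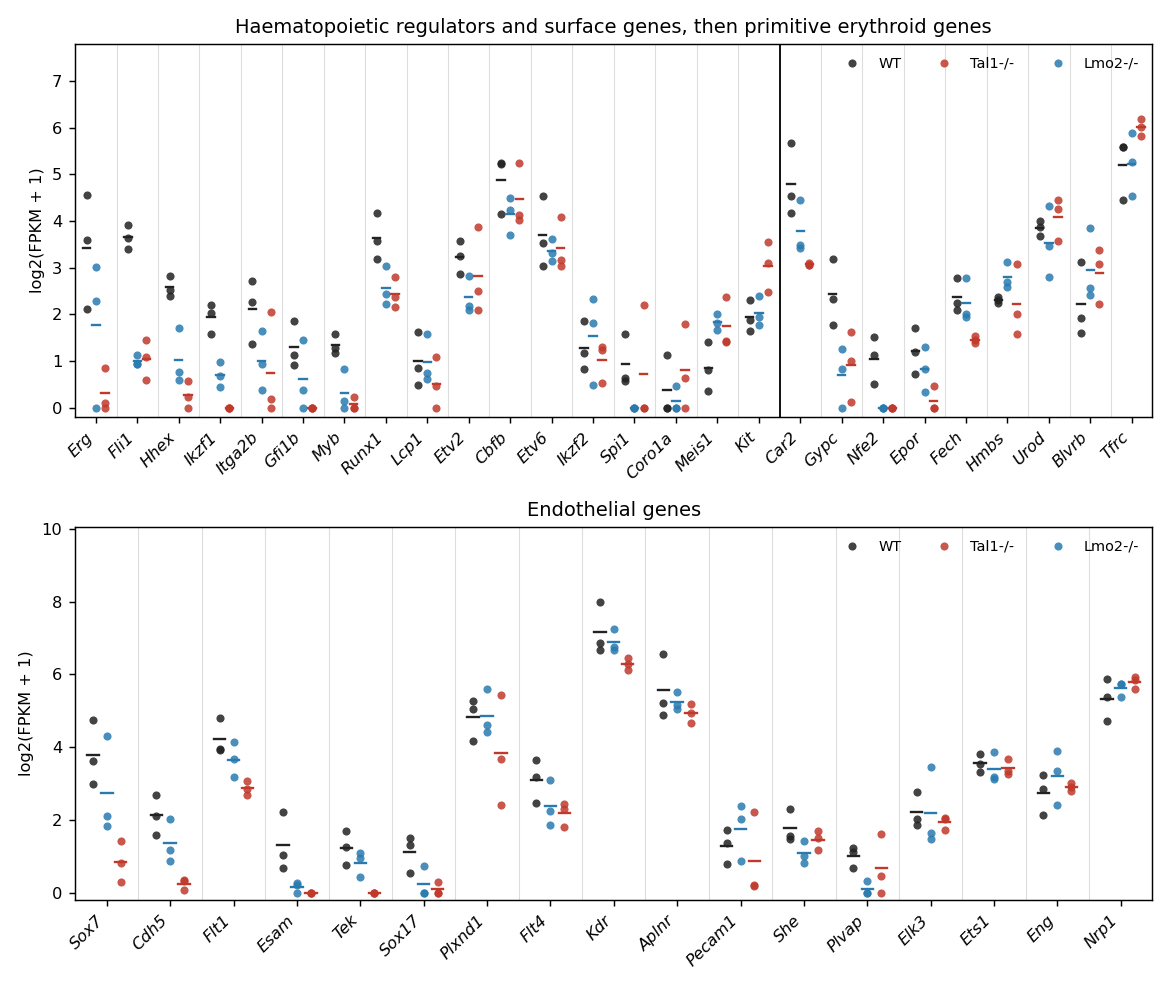
Level as log2(FPKM + 1) in each Flk-1+ library for the tested haematopoietic and primitive erythroid genes (top, divided by a black line) and endothelial genes (bottom), ordered by log2 fold change, with 1 point per library and a bar at the mean. At the left of each group the red Tal1-/- points lie below the black WT points, as for Erg, Fli1, Car2, Sox7 and Cdh5. For Kit and Tfrc at the right the red points lie above the black points.

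Genes of the primitive streak differed both ways. Of 16 tested, 4 were lower and 2 higher in Tal1-/- at an unadjusted p below 0.05, and the median log2 fold change was -0.19. Eomes, the T-box factor of mesendoderm, had 120, 122 and 98.3 FPKM in WT and 40.1, 54.3 and 63.6 FPKM in Tal1-/- (log2 fold change -1.11 ± 0.30 SE, limma adjusted p = 0.272). Lhx1 had 78.0, 67.2 and 55.5 FPKM in WT and 18.8, 42.7 and 24.9 FPKM in Tal1-/- (log2 fold change -1.25 ± 0.39 SE), and T, the Brachyury gene, had 122, 78.8 and 43.3 FPKM in WT and 16.4, 29.1 and 35.2 FPKM in Tal1-/-. All 3 were lower in each Tal1-/- library. In contrast Cdx2, a caudal homeobox gene of posterior embryo and trophoblast, had 0.11, 0 and 0.37 FPKM in WT and 4.64, 4.03 and 5.53 FPKM in Tal1-/- (log2 fold change 2.31 ± 0.36 SE, adjusted p = 0.0725). Its adjusted p was 0.0277 without the mean-variance trend and 0.0369 after quantile normalization. These were the only 2 of 16 alternative fits in which Cdx2 passed. Its adjusted p was 0.148 when only the 6 libraries were fitted, and reached 0.293 without WT replicate 1. Hox genes, which CDX factors regulate, were little expressed, with 6 of 25 tested, and Hoxb1 of the anterior group is described above.

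Other mesodermal lists were mixed. Among 16 tested genes of lateral plate and extraembryonic mesoderm, 2 were lower and 2 higher at an unadjusted p below 0.05, and the median log2 fold change was 0.13. The lower ones were Hapln1, a hyaluronan link protein gene, with 10.02, 5.37 and 5.54 FPKM in WT and 0.52, 0 and 0 FPKM in Tal1-/- (log2 fold change -2.74 ± 0.44 SE, limma adjusted p = 0.0773), and Bmp2, with 20.99, 15.4 and 17.9 FPKM in WT and 7.10, 7.46 and 6.62 FPKM in Tal1-/- (log2 fold change -1.24 ± 0.31 SE). The higher ones were the homeobox gene Msx2 and Postn, a matrix gene that was listed at 0 in all WT libraries. Among 15 tested cardiac genes 2 were lower and 0 higher, with a median of -0.53. These were Smarcd3, a chromatin remodelling subunit of heart precursors, with 4.61, 7.82 and 6.22 FPKM in WT, 2.58, 0.90 and 3.71 FPKM in Tal1-/- and 12.8, 15.9 and 17.6 FPKM in Lmo2-/-, and Myl4, an atrial myosin light chain gene at no more than 2.52 FPKM in WT. Tbx20, a heart T-box factor, had 29.9, 15.6 and 21.4 FPKM in WT and 47.5, 30.6 and 28.9 FPKM in Tal1-/- (limma adjusted p = 0.578). Of the 6 cardiomyocyte markers, Myl7, another atrial myosin light chain gene, had 8.02, 7.54 and 11.7 FPKM in WT and 2.32, 10.7 and 8.09 FPKM in Tal1-/-, and the other 5 (Tnnt2, Myh6, Actn2, Ttn and Nkx2-5) were at most 1.20 FPKM in any of the 6 libraries. The cardiac actin gene Actc1, a member of the cardiac list, was at 14.3 FPKM in Tal1-/- replicate 0 and at most 4.59 FPKM in the other libraries.

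Of 14 tested smooth muscle genes, 4 were lower and 2 higher at an unadjusted p below 0.05, with a median of -0.52. Tagln had 7.52, 3.25 and 2.98 FPKM in WT and 1.33, 0 and 0 FPKM in Tal1-/-, Tpm1 had 74.1, 133 and 94.6 FPKM in WT and 52.0, 44.6 and 48.7 FPKM in Tal1-/-, and Des had 2.59, 4.09 and 3.31 FPKM in WT and 1.88, 0 and 0.59 FPKM in Tal1-/-. Csrp1 went the other way, with 2.69, 3.12 and 1.05 FPKM in WT and 10.03, 8.58 and 5.64 FPKM in Tal1-/- (log2 fold change 1.498 ± 0.41 SE, limma adjusted p = 0.281). Of 8 tested paraxial mesoderm genes none was at an unadjusted p below 0.05, and their median log2 fold change was -0.30 (0.03 without WT replicate 0).

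Of 27 tested Wnt genes, 4 were lower and 1 higher at an unadjusted p below 0.05, with a median log2 fold change of 0.08. Wnt2b, a ligand, had 9.47, 5.95 and 4.49 FPKM in WT and 1.08, 0.45 and 2.85 FPKM in Tal1-/- (log2 fold change -1.70 ± 0.46 SE, limma adjusted p = 0.272), and Rspo3, which amplifies Wnt signals, had 22.6, 11.4 and 14.8 FPKM in WT and 8.08, 3.69 and 8.02 FPKM in Tal1-/- (log2 fold change -1.20 ± 0.41 SE). The R-spondin receptor gene Lgr5 had 14.99, 28.9 and 28.3 FPKM in WT and 0.89, 7.88 and 23.9 FPKM in Tal1-/-, with 1 Tal1-/- library inside the WT range. The antagonist Dkk1 was the member that was higher. Of 19 tested BMP and TGF-beta genes, 2 were lower, the ligand Bmp2 and the target Id3, and 1 was higher, the decoy receptor Bambi, with a median of 0.10. Id3 had 7.67, 10.4 and 6.59 FPKM in WT and 4.74, 2.60 and 0.30 FPKM in Tal1-/-.

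Of 17 tested FGF pathway genes, 2 were lower and 3 higher, and the median was -0.33 (0.05 without WT replicate 0). Fgf3 had 25.2, 18.5 and 11.97 FPKM in WT and 7.24, 6.82 and 4.57 FPKM in Tal1-/- (log2 fold change -1.40 ± 0.42 SE, limma adjusted p = 0.369), and Fgf15 had 21.2, 9.77 and 12.7 FPKM in WT and 23.7, 27.8 and 25.1 FPKM in Tal1-/- (log2 fold change 0.84 ± 0.33 SE). Fgf4, a ligand of pluripotent cells, was at most 3.05 FPKM in any of the 6 libraries. Among 11 tested Nodal pathway genes the co-receptor Tdgf1 was lower, with 49.1, 41.8 and 63.8 FPKM in WT and 13.7, 18.1 and 25.4 FPKM in Tal1-/- (log2 fold change -1.41 ± 0.38 SE), and the median was -0.02. Of 13 tested Notch genes 0 were lower and 1, the ligand gene Jag2, was higher at an unadjusted p below 0.05, with a median of -0.30 (0.13 without WT replicate 0). Of 9 tested retinoic acid genes only Cyp26a1 was at an unadjusted p below 0.05, and the median was 0.11.

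Eph receptors and ephrins had the highest median of the lists with at least 6 genes tested, 0.50 over 13 genes (0.21 without WT replicate 2). Of these, 1 was lower and 2 higher at an unadjusted p below 0.05. Efna1 had 2.15, 3.06 and 2.17 FPKM in WT and 8.43, 10.04 and 4.29 FPKM in Tal1-/- (log2 fold change 1.25 ± 0.37 SE, limma adjusted p = 0.365), and the receptor Ephb3 had 4.47, 3.75 and 2.29 FPKM in WT and 14.1, 11.8 and 5.26 FPKM in Tal1-/- (log2 fold change 1.27 ± 0.45 SE). The ligand Efnb2 was the member that was lower. For 4 of the 13 all Tal1-/- libraries were above all WT libraries, and for 1 they were below, against 693 (5.67%) and 882 (7.22%) of all 12222 genes at any level.

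Imprinted genes held large differences of both signs. Of 27 tested, 4 were higher and 3 lower at an unadjusted p below 0.05, with a median of 0.15. Dlk1 and Grb10 are described above. Peg3, a paternally expressed zinc finger gene, was among the most abundant, with 470, 276 and 278 FPKM in WT, 673, 663 and 740 FPKM in Tal1-/- and 278, 260 and 260 FPKM in Lmo2-/- (log2 fold change between Tal1-/- and WT 1.06 ± 0.33 SE, limma adjusted p = 0.374). Its neighbour Usp29, whose locus holds the predicted Gm27675, had 2.11, 3.71 and 2.34 FPKM in WT and 7.08, 9.40 and 6.33 FPKM in Tal1-/- (log2 fold change 1.22 ± 0.36 SE). The Lmo2-/- values of both were near those of WT. Zim1, of the same cluster, had a log2 fold change of -1.32, which was looked up after its value was seen. Of 24 germline genes only Tex15 and Zcwpw1 were tested. None of 9 tested DNA methylation enzyme genes was at an unadjusted p below 0.05, and Dnmt1, the maintenance methyltransferase gene, had 56.8, 57.2 and 40.3 FPKM in WT and 38.8, 32.0 and 27.9 FPKM in Tal1-/-.

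Of 23 tested matrix genes, 2 were lower and 1 higher, with a median of -0.10 (0.32 without WT replicate 0 and 0.04 without Tal1-/- replicate 2). Col1a1, the chain of fibrillar collagen, had 5.80, 12.8 and 4.54 FPKM in WT and 30.3, 22.9 and 16.1 FPKM in Tal1-/- (log2 fold change 1.54 ± 0.40 SE, limma adjusted p = 0.254). Vcan, a large proteoglycan gene, had 179, 59.8 and 37.8 FPKM in WT and 31.1, 25.8 and 25.5 FPKM in Tal1-/- (log2 fold change -1.41 ± 0.48 SE). Of the 9 markers of the fibroblast feeder cells, Col1a1 among them, the summed level was 41.9 to 62.7 FPKM in WT and 57.6 to 91.9 FPKM in Tal1-/-. Lum was listed at 0 in all 6 libraries, Dcn in all WT libraries and in Tal1-/- replicate 2, and Col3a1 in all but Tal1-/- replicate 1. Before differentiation the ES cells had been passaged without feeder cells, and the cells were later sorted for Flk-1. The part of feeder cells in the values of Col1a1 and Postn was not tested. Of 11 tested integrin genes Itga2b alone was at an unadjusted p below 0.05.

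Genes of other germ layers showed single differences. Of 6 tested endoderm genes, Apoe had 77.8, 255 and 88.8 FPKM in WT and 46.0, 20.8 and 18.98 FPKM in Tal1-/- (log2 fold change -2.16 ± 0.49 SE, limma adjusted p = 0.173), and Apob had 0.051, 0.053 and 0.044 FPKM in WT and 18.6, 1.72 and 1.26 FPKM in Tal1-/-. Tal1-/- replicate 0 had by far the highest value of Apob, and with 1 library left out the log2 fold change of Apob was 1.24 to 2.8. In that replicate the endoderm gene Cubn was also at 8.96 FPKM, against 0.86 and 0.93 FPKM in the other Tal1-/- libraries. Afp was at 1.14 FPKM and Ttr, Apoa1, Amn, Foxa2 and Hnf4a were at 0 there. What endoderm cells added to the values of Apob was not tested. Of 10 tested neural genes Zic2 was lower, with 19.7, 17.1 and 15.5 FPKM in WT and 9.59, 4.97 and 4.43 FPKM in Tal1-/- (log2 fold change -1.39 ± 0.36 SE), and of 14 tested epithelial genes only Cldn7 was at an unadjusted p below 0.05. Of 12 tested pluripotency genes, 2 were lower (Tdgf1 and L1td1) and 2 higher (Fgf4 and Dppa5a), with a median of -0.22.

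Lists of general cell functions had medians between -0.27 and 0.19. Of 23 tested genes of glycolysis and hypoxia, 3 were higher (Egln1, Egln3 and Pdk1) and 0 lower, with a median of 0.16. Egln3, an oxygen-sensing hydroxylase gene that low oxygen induces, had 20.7, 19.8 and 20.2 FPKM in WT and 49.1, 26.3 and 31.1 FPKM in Tal1-/- (log2 fold change 0.73 ± 0.30 SE, limma adjusted p = 0.516). Of 22 tested cell cycle genes, Ccne1 (cyclin E1) was higher, with 8.24, 5.06 and 6.003 FPKM in WT and 10.7, 16.6 and 23.1 FPKM in Tal1-/-, and Mcm2 lower, with a median of 0.02. Of 14 tested immediate early and stress genes, Egr1 and Junb were higher, and Egr1 had 5.01, 5.46 and 3.92 FPKM in WT, 11.6, 13.9 and 11.3 FPKM in Tal1-/- and 1.04, 2.78 and 3.13 FPKM in Lmo2-/-. Of 23 tested ribosomal protein genes 3 were lower and 3 higher, with a median of -0.27, and their values are uncertain because such genes have many near-identical pseudogenes that can share reads. Of 18 tested genes of oxidative phosphorylation 1 was lower and 1 higher, with a median of 0.19, and of 12 tested glutathione genes none was at an unadjusted p below 0.05, with a median of -0.17.

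**Figure D5:**
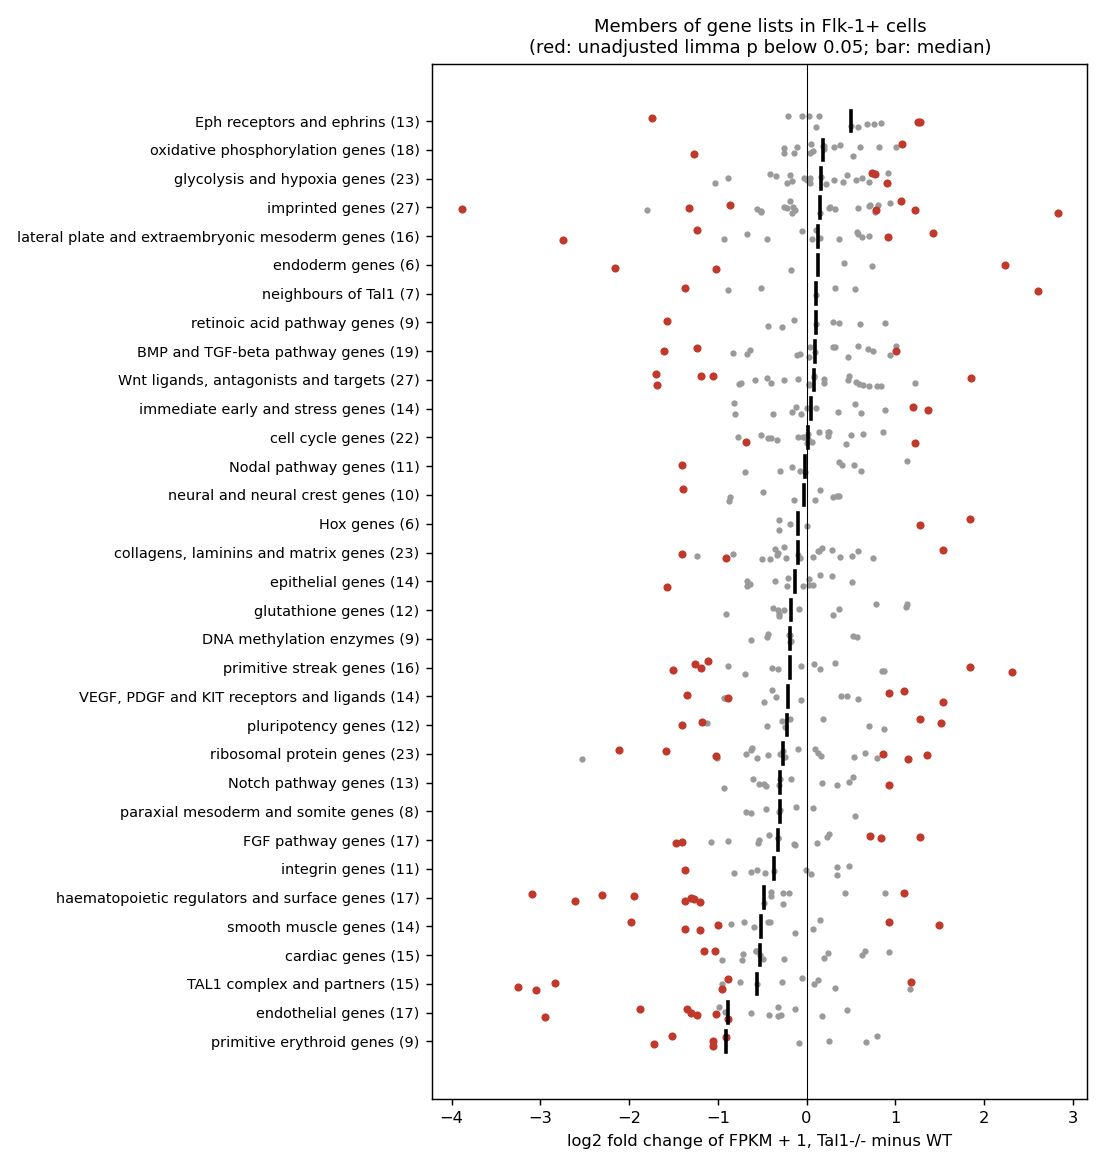
Log2 fold change (Tal1-/- minus WT, on log2(FPKM + 1)) of each tested member of the gene lists with at least 6 tested members, with the number tested in brackets. Red points have an unadjusted limma p below 0.05 and black bars are medians, which run from -0.91 for primitive erythroid genes to 0.50 for Eph receptors and ephrins.

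Tal1-/- and Lmo2-/- Flk-1+ cells were also set against each other directly, since both were compared with the same WT libraries. At an adjusted limma p below 0.05, 3 of 12222 genes (0.0245%) differed, against 1061 at an unadjusted p below 0.05. Among them were 2 genes described above. Tex15 was higher in Tal1-/- than in Lmo2-/- by 3.01 ± 0.38 SE on the log2 scale (adjusted p = 0.0249), where Lmo2-/- libraries had 0.97, 1.62 and 1.37 FPKM. Grb10 was lower in Tal1-/- than in Lmo2-/-, with a log2 difference of -5.41 ± 0.74 SE (adjusted p = 0.0345). Its Lmo2-/- values of 58.0, 128 and 76.8 FPKM lay above those of 2 of the WT libraries. The third gene was Gm12929, a predicted gene that was also lower in Tal1-/- than in WT. Among the Flk-1+ libraries, Wnk4 and Alox12b were listed at 0 only in Tal1-/-. Their log2 differences from Lmo2-/- were -2.17 ± 0.51 SE and -2.63 ± 0.55 SE, with adjusted p-values of 0.307 and 0.206. For Fli1 the difference was 0.04 ± 0.37 SE, for Gata2 -1.68 ± 0.54 SE, for Sox7 -1.91 ± 0.65 SE and for Dlk1 1.73 ± 0.46 SE, and none of these 4 passed. Some other genes described above also had small log2 differences between the mutants, and were picked out after these were seen. The differences were -0.11 for Eomes, -0.15 for Lhx1, -0.09 for Cyp26a1, 0.04 for Csrp1, 0.15 for Col1a1 and 0.18 for Unc5c. A p that misses the threshold does not show that the mutants were alike.

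The promoters of the genes that lead the comparison were read for the motifs that TAL1 and its partners are known to bind. RefSeq promoters of GRCm38.p6, from 250 bases before to 50 after a start site, were at hand for 9 of the 15 genes lower in Tal1-/- (12 promoters) and 12 of the 15 genes higher in Tal1-/- (17 promoters). Shown are Wnk4 and Alox12b, which were called, both promoters of Tal1 and of Gata2, and Dlk1, first by p of the 15 higher genes. E-boxes (CANNTG) and GATA motifs (AGATAA) of either strand are in capitals.
Wnk4, chr11:101260317-101260616, plus strand: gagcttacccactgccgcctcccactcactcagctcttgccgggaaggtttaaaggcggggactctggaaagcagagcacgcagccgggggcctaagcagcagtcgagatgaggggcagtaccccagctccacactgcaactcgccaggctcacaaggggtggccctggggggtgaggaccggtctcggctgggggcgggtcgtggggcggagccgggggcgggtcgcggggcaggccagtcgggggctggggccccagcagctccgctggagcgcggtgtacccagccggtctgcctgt
Alox12b, chr11:69156822-69157121, plus strand: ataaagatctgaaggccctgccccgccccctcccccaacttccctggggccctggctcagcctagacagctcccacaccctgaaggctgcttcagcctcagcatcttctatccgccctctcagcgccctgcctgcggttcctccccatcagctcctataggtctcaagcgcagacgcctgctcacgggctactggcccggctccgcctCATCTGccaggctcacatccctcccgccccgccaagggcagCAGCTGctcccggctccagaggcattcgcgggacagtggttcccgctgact
Tal1, chr4:115056176-115056475, plus strand: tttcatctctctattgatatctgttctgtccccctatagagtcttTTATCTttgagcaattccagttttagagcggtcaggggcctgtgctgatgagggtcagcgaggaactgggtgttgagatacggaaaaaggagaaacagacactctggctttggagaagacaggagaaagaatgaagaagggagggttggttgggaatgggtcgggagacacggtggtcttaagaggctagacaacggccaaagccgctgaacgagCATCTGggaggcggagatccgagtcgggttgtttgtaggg
Tal1, chr4:115057561-115057860, plus strand: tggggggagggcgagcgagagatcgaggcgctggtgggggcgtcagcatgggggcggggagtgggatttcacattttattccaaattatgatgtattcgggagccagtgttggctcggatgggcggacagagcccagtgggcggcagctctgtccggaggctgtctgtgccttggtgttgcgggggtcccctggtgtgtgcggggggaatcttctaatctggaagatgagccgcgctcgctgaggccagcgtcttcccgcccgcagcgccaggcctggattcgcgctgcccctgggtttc
Gata2, chr6:88193641-88193940, plus strand: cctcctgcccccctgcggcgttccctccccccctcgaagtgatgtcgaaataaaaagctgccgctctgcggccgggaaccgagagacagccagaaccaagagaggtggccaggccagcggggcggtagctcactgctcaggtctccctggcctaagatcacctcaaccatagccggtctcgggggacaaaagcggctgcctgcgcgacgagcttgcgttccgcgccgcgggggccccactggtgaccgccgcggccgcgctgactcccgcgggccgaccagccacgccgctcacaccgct
Gata2, chr6:88198414-88198713, plus strand: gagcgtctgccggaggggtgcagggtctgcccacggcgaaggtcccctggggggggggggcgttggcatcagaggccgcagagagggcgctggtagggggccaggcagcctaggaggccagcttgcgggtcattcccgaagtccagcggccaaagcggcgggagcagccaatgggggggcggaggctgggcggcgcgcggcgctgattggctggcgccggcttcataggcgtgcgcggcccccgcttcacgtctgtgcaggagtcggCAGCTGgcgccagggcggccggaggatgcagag
Dlk1, chr12:109452573-109452872, plus strand: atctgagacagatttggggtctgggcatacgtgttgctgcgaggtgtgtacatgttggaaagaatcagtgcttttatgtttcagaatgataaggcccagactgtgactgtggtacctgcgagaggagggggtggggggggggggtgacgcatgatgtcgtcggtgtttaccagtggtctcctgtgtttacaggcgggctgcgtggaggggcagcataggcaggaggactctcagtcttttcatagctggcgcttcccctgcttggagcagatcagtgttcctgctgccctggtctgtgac

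The upstream promoter of Tal1 held 1 E-box, which reads CAGATG on the other strand, and 1 GATA motif, the promoter of Alox12b held 2 E-boxes, and the downstream promoter of Gata2 held 1, CAGCTG. No E-box or GATA motif in these letters was found in the windows of Wnk4 and Dlk1, the upstream promoter of Gata2 or the downstream promoter of Tal1. An E-box was in 6 of the 12 promoters of the genes lower in Tal1-/- (50.0%) and in 13 of the 17 promoters of the genes higher (76.5%), and 72.3% of all 32851 promoters of the table had one. CAGCTG, which is also counted as CANNTG, was in 16.7% of the promoters of the lower and 23.5% of those of the higher genes, against 16.3% of all. CAGATG was in 25.0% and 17.6%, against 17.2%, and AGATAA was in 8.33% and 0%, against 11.2%. For the 12 genes of the TAL1 complex with an entry (22 promoters) these shares were 63.6% for CANNTG, 18.2% for CAGCTG, 4.55% for CAGATG and 13.6% for AGATAA. A match of letters is a description and no evidence of binding, and distal sites lie outside these windows.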

How the data were processed

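RNAseq (polyA RNA, stranded kit, paired ends) of 3 WT, 3 Tal1-/- and 3 Lmo2-/- Flk-1+ libraries was used. The authors aligned reads with TopHat2 2.0.9 to mm10 (GRCm38), assembled them with Cufflinks 2.0.0 and deposited FPKM per library from Cuffnorm, and 0 per-sample columns were left out. The file of FPKM that the authors pooled per condition served for gene symbols and loci. The deposited Cuffdiff table holds the authors' own fold changes and p-values and was not used. Fragment counts are not in the files, so intervals and detection limits could not be computed.

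On log2(FPKM + 1) of 12222 genes in the 9 libraries, limma 3.58.1 (R 4.3.3, trend option) fitted a mean per group, with two-sided tests and Benjamini-Hochberg adjustment, and was tested on simulated data. A pseudocount of 1 understates the change of low genes. Calls needed an adjusted p below 0.05 and a mean above 10 FPKM in WT or Tal1-/-. Named were TAL1 complex genes, the calls, per direction the 15 genes with the smallest p among those with a mean above 10 FPKM and no overlap of libraries, and up to 4 genes with the smallest p in each of 34 gene lists. Loci with several names, predicted genes, pseudogenes, small RNAs and genes without a symbol were counted but not named among the 15 (118 of 654). A list member whose locus holds another known gene, or that has no locus of its own, was not analysed here, and of 2 loci of 1 symbol the tested or longer one was used. There were 9 marker lists. The comparison and the gene lists were chosen with earlier results of these data known. The alternatives tried are given at the end. Python 3.11.15 with numpy 2.4.6, pandas 2.3.3 and matplotlib 3.10.9 did the rest. ChIPseq and DHSseq data were not analysed here, and 2 genes that the rule names are not reported here.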

Additional observations from a re-analysis of the deposited data

How the results depend on the processing

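The count of called genes was 3 with FPKM of at least 1 in 3 libraries, common median, quantile normalization or no trend, the same genes each time, and 3 with only the 6 libraries, with Tal1 in place of Fli1. It was 2 with a pseudocount of 0.1 (without Fli1) and 4 with no FPKM criterion. It was 0 in a fit of all 13 libraries and with no filter on low values, 1 with array weights and 1 with the replicate block, where Wnk4 remained, and 0 to 4 with 1 library left out. With a count of 0, 800 genes (13 libraries) and 1433 genes (no filter) had an unadjusted p below 0.05. Genes at an unadjusted p below 0.05 were 663 to 1315 with 1 library left out, the lowest without WT replicate 1, and 800 to 1433 in the other fits. Genes whose libraries do not overlap were 853 to 1645 with 1 library left out, since fewer libraries overlap less, and 1575 with no FPKM criterion. After quantile normalization 46.9% of the genes at an unadjusted p below 0.05 were higher in Tal1-/-, against 38.4%. Same-numbered WT and Tal1-/- libraries had correlations of their deviations of 0.181, 0.079 and 0.114, and each library correlated best with its own number, a hint from the data that no source used here states, so the numbers were not taken as pairs. Of 154 named genes, 7 changed sign at least once, all with an adjusted p above 0.8. With 1 library left out their log2 fold changes ran from -0.31 to 0.92 (Lmo1), -0.57 to 0.41 (Lmo4), -0.80 to 0.78 (Gata3), -0.031 to 1.06 (Jup), -1.03 to 0.058 (Rxra), -0.69 to 0.065 (Hoxd1) and -0.60 to 0.036 (Hoxb3), and Lmo1 was at -0.053 with a pseudocount of 0.1. The cause of these changes was not tested. Of 528 list medians over the alternatives, 37 moved by more than the spread between libraries. Unknown depth limits all low values.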
